A study of Mus musculus with 112 samples.

Results

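Pparg, the peroxisome proliferator-activated receptors Ppara and Ppard, the retinoid X receptors Rxra, Rxrb and Rxrg, the corepressor Ncor1 and the coactivators Ppargc1a and Ppargc1b were followed in mice that carry alanine or proline at the Pro12Ala site of PPARγ2. All probe sets annotated to these 9 symbols were taken, 21 of the 32640 on the array. Ncor1 had 6, Ppara and Rxra 3 each, Ppard, Ppargc1a and Ppargc1b 2 each, and Pparg, Rxrb and Rxrg 1 each. The annotation gives no position for a probe set within its gene, so the isoform that each one reads is unknown.

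PPARs bind DNA as pairs with an RXR, and fatty acids and their derivatives act as ligands. Without ligand the pair can hold corepressor complexes built on NCoR1 and histone deacetylase 3, and ligand favours an exchange for coactivators, among them PGC-1α and PGC-1β, which Ppargc1a and Ppargc1b encode. PPARγ drives adipocyte formation and fat storage, PPARα drives fatty acid oxidation in liver, and PPARδ is a widely expressed regulator of oxidation that is much studied in muscle. The Pro12Ala site lies in the N-terminal stretch that distinguishes PPARγ2, the isoform characteristic of fat, from PPARγ1.

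The mice were male littermates, homozygous for the Pro12Ala knock-in allele (Ala/Ala) or wild type (Pro/Pro), and were given a high-fat diet (HFD) or kept on chow. The labels disagree on the diet: the series text names a feeding period of 15 weeks from 8 weeks of age, the sample descriptions name 12 weeks and another high-fat feed. Epididymal fat was measured in 8 Ala/Ala HFD, 9 Ala/Ala chow, 10 Pro/Pro HFD and 10 Pro/Pro chow mice, gastrocnemius muscle in 9, 10, 8 and 8 mice of the same groups in the same order, and liver in 10 mice of each group. The 112 arrays came from 41 mice, of which 31 gave all 3 tissues. The allele is carried in every tissue of the Ala/Ala mice, and heterozygous mice were not analysed here.

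Each value compares 1 mouse with a pool computed from the HFD Pro/Pro mice of its tissue and is given here as a log2 ratio, so 0 is the level of the pool and a negative value lies below it. The HFD Pro/Pro group lies near 0 by construction. A ratio carries no level, so a probe set cannot be ranked against another or between tissues, and whether a gene is expressed at all in a tissue cannot be read from it. Below, a difference is HFD minus chow or Ala/Ala minus Pro/Pro on the log2 scale ± standard error, and a probe set passed the test at a limma p under 0.05 after Benjamini-Hochberg adjustment over all 32640 probe sets.

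Promoter sequence was taken from RefSeq for members whose probe sets passed the test below and for the downstream start of Pparg. The windows were searched on both strands for the nuclear receptor motif AGGTCA, for the direct repeat of it with 1 base between the copies, which PPAR and RXR pairs bind, for the core TGACG of cyclic AMP response elements, for the E-box CACGTG and for the GC box GGGCGG, and matches in the stretches printed are in capitals. Of 32851 mouse promoter windows of the same length, 250 bases before a start, 14% hold AGGTCA, 0.0335% the direct repeat, 17.8% TGACG, 6.02% CACGTG and 32.7% GGGCGG. The coordinates are those of GRCm38.p6. The first stretch lies before the downstream start of Pparg (chr6:115421816-115422065, plus strand), from which, as background, PPARγ2 is made. The second precedes the annotated start of Rxrg (chr1:167598112-167598361, plus strand), the third that of Ncor1 (chr11:62457415-62457582, minus strand) and the fourth an internal start of Ppargc1a (chr5:51567726-51567975, minus strand).
Pparg downstream start: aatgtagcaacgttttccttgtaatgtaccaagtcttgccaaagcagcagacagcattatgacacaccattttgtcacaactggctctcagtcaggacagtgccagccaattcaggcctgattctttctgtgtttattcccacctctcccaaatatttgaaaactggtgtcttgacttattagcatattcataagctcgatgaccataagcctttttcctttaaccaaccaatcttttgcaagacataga
Rxrg: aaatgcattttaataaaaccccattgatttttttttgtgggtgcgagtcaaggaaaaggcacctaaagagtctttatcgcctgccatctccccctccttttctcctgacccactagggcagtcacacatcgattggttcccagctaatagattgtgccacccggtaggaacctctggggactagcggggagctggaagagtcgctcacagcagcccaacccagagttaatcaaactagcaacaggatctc
Ncor1: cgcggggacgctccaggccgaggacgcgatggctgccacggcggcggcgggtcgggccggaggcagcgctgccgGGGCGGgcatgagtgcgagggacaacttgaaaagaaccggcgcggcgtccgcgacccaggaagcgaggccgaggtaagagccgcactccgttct
Ppargc1a: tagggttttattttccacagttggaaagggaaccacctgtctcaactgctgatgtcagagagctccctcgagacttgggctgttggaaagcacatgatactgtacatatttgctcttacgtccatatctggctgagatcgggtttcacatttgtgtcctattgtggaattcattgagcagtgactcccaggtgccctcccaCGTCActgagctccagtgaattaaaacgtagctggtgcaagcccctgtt
The Ncor1 stretch was shortened to the 168 bases before the annotated gene start, is rich in G and C (73.2%) and holds 1 of the 2 GC boxes of its full window, while the Pparg stretch has 40.8% G and C and the Ppargc1a stretch, with 48%, holds 1 TGACG match on the reverse strand that begins 49 bases before its start. None of these letters occurred in the Pparg and Rxrg stretches shown. Over all 14 windows of the 8 members that could be searched here, AGGTCA lay in 4: both upstream starts of Pparg, 1 start of Rxra and the downstream start of Rxrg. A match describes the letters only.

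In fat, HFD feeding went with lower Ncor1, Ppargc1b, Ppargc1a and Rxrg in Ala/Ala mice and lower Ncor1 and Ppargc1b in Pro/Pro mice, while Pparg itself did not pass the test in either genotype. In Ala/Ala mice 8 of the 21 probe sets were lower and 0 higher, where 14.6% of all probe sets were lower and 26.9% changed in either direction. In Pro/Pro mice 6 were lower and 0 higher, against 13.1% lower and 22.5% changed among all probe sets. The median difference over the 21 probe sets was -0.12 in Ala/Ala and -0.13 in Pro/Pro mice, beside 0.03 and 0.01 over all probe sets. Probe sets of 1 gene are not independent, and the 14 calls rest on 4 genes in Ala/Ala and on 2 in Pro/Pro mice. Counted by 1 probe set per gene, fewer members passed, and these counts are given below beside those of all genes. In whole tissue, fewer cells of a type and less RNA per cell cannot be told apart.

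**Figure D1:**
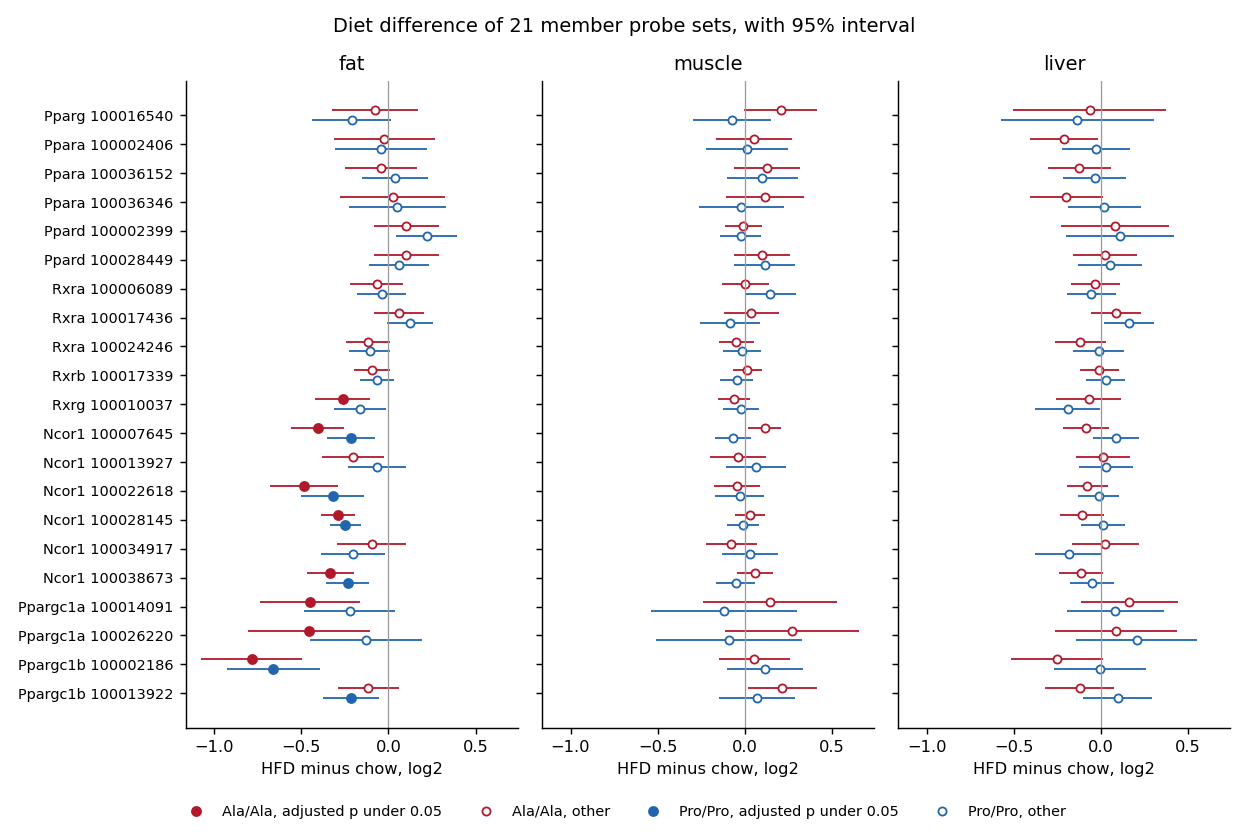
Difference between HFD and chow (x axis, log2) for each of the 21 probe sets (y axis) in fat, muscle and liver, with 95% intervals; Ala/Ala is drawn above Pro/Pro and filled points have an adjusted p under 0.05. Filled points occur in fat alone, 8 for Ala/Ala and 6 for Pro/Pro, all left of 0.

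Pparg in fat ranged from -0.30 to 0.16 in Ala/Ala HFD mice (median 0.06), and from -0.56 to 0.47 in Ala/Ala chow mice (median 0.26). The ranges overlapped, every Ala/Ala HFD mouse lay below the chow median, and 6 of the 9 chow mice lay above every HFD mouse. Pparg ranged from -0.41 to 0.27 in Pro/Pro HFD mice (median 0.05) and from -0.07 to 0.48 in Pro/Pro chow mice (median 0.21). Of the 10 Pro/Pro HFD mice 8 lay below the chow median, and 4 of the 10 chow mice lay above every HFD mouse. The diet difference was -0.08 ± 0.12 in Ala/Ala mice (95% interval -0.32 to 0.17, adjusted p = 0.676) and -0.21 ± 0.11 in Pro/Pro mice (-0.44 to 0.02, adjusted p = 0.189). Neither interval leaves out a decrease of the size of Ncor1 100028145 in the same genotype (-0.29 in Ala/Ala and -0.25 in Pro/Pro mice), while the Ala/Ala interval ends above the other 3 Ncor1 differences that passed.

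The other PPARs did not pass the test in fat. The 3 Ppara probe sets differed by -0.04 to 0.03 in Ala/Ala and by -0.04 to 0.05 in Pro/Pro mice. The 2 Ppard probe sets differed by 0.10 each in Ala/Ala and by 0.22 and 0.06 in Pro/Pro mice. The larger of these, probe set 100002399 in Pro/Pro mice, missed the threshold (0.22 ± 0.09, adjusted p = 0.0609), with HFD values of -0.33 to 0.17 against chow values of -0.67 to 0.10.

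Among the RXR partners only Rxrg, the retinoid X receptor best known from muscle and brain, passed the test in fat, and only in Ala/Ala mice. Rxrg ranged from -0.12 to 0.32 in Ala/Ala HFD mice (median 0.03) and from -0.06 to 0.66 in Ala/Ala chow mice (median 0.34). All 8 HFD mice lay below the chow median, and the ranges overlapped. The difference was -0.26 ± 0.08 (0.83-fold, adjusted p = 0.0113). In Pro/Pro mice Rxrg ranged from -0.18 to 0.25 on HFD (median -0.06) and from 0.03 to 0.37 on chow (median 0.15), a difference of -0.16 ± 0.07 (adjusted p = 0.106). The diet differences of the 2 genotypes did not pass a test against each other (-0.10 ± 0.11, 95% interval -0.32 to 0.12, adjusted p = 1). Rxra, the main RXR of liver and fat, had differences of -0.12 to 0.06 in Ala/Ala and -0.11 to 0.12 in Pro/Pro mice over its 3 probe sets. Rxrb, the broadly expressed RXR, differed by -0.10 ± 0.05 in Ala/Ala (adjusted p = 0.177) and by -0.06 ± 0.05 in Pro/Pro mice (adjusted p = 0.386).

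Ncor1, the scaffold of the corepressor complex, fell on HFD in fat of both genotypes by the same 4 of its 6 probe sets. Probe set 100028145 separated the diets: Ala/Ala HFD mice lay between -0.24 and 0.11 (median -0.05) and Ala/Ala chow mice between 0.18 and 0.37 (median 0.24). Pro/Pro HFD mice lay between -0.15 and 0.12 (median 0.01) and Pro/Pro chow mice between 0.13 and 0.38 (median 0.26). In both genotypes each HFD mouse was below each chow mouse. How many of all probe sets separate the diets in this way was not counted. Its differences were -0.29 ± 0.05 in Ala/Ala (0.82-fold, adjusted p = 1.71e-05) and -0.25 ± 0.04 in Pro/Pro mice (0.84-fold, adjusted p = 4.98e-05).

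A larger Ncor1 difference with some overlap came from probe set 100022618, which ranged from -0.30 to 0.15 in Ala/Ala HFD mice (median -0.12) and from 0.11 to 0.82 in Ala/Ala chow mice (median 0.37). In Pro/Pro mice it ranged from -0.36 to 0.28 on HFD (median -0.02) and from -0.10 to 0.77 on chow (median 0.35). Of the 8 Ala/Ala HFD mice 7 lay below all chow mice, and of the 10 Pro/Pro HFD mice 3 did. The differences were -0.49 ± 0.10 (adjusted p = 0.000211) and -0.32 ± 0.09 (adjusted p = 0.00673). Probe sets 100007645 and 100038673 differed by -0.41 ± 0.07 (adjusted p = 7.84e-05) and -0.33 ± 0.07 (adjusted p = 0.000278) in Ala/Ala mice, and by -0.21 ± 0.07 (adjusted p = 0.0195) and -0.24 ± 0.06 (adjusted p = 0.00459) in Pro/Pro mice. The remaining 2, 100013927 and 100034917, gave -0.21 ± 0.09 (adjusted p = 0.0819) and -0.10 ± 0.10 (adjusted p = 0.492) in Ala/Ala and -0.07 ± 0.08 (adjusted p = 0.634) and -0.20 ± 0.09 (adjusted p = 0.109) in Pro/Pro mice. All 12 Ncor1 differences in fat, over 6 probe sets and both genotypes, were below 0.

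Ppargc1b, the coactivator PGC-1β, had the largest fall among the members in fat, by 1 of its 2 probe sets. Probe set 100002186 ranged from -0.37 to 0.30 in Ala/Ala HFD mice (median -0.11) and from 0.26 to 1.38 in Ala/Ala chow mice (median 0.67). It ranged from -0.54 to 0.56 in Pro/Pro HFD mice (median -0.05) and from 0.20 to 1.03 in Pro/Pro chow mice (median 0.54). In each genotype 7 HFD mice lay below all chow mice, of 8 Ala/Ala and 10 Pro/Pro, and the others overlapped the chow range. The differences were -0.79 ± 0.14 in Ala/Ala (0.58-fold, adjusted p = 7.68e-05) and -0.66 ± 0.13 in Pro/Pro mice (0.63-fold, adjusted p = 0.00025). The other probe set, 100013922, disagreed in size, with -0.12 ± 0.09 in Ala/Ala (adjusted p = 0.329) and -0.21 ± 0.08 in Pro/Pro mice (adjusted p = 0.0457).

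Ppargc1a, the coactivator PGC-1α, passed the test in Ala/Ala fat by both of its probe sets. Probe set 100014091 ranged from -0.55 to 0.21 in Ala/Ala HFD mice (median -0.18) and from -0.15 to 1.04 in Ala/Ala chow mice (median 0.18), a difference of -0.45 ± 0.14 (0.73-fold, adjusted p = 0.0153). Probe set 100026220 ranged from -1.001 to 0.03 (median -0.42) in Ala/Ala HFD mice and from -0.52 to 0.74 (median -0.08) in Ala/Ala chow mice, a difference of -0.46 ± 0.17 (adjusted p = 0.0458). By each probe set 4 of the 8 HFD mice were below all chow mice, and the rest overlapped with them. In Pro/Pro mice the differences were -0.22 ± 0.13 (adjusted p = 0.238) and -0.13 ± 0.16 (adjusted p = 0.632). Neither probe set's diet difference passed a test between genotypes (-0.23 ± 0.19, 95% interval -0.62 to 0.16, and -0.33 ± 0.23, -0.81 to 0.15, each with adjusted p = 1).

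**Figure D2:**
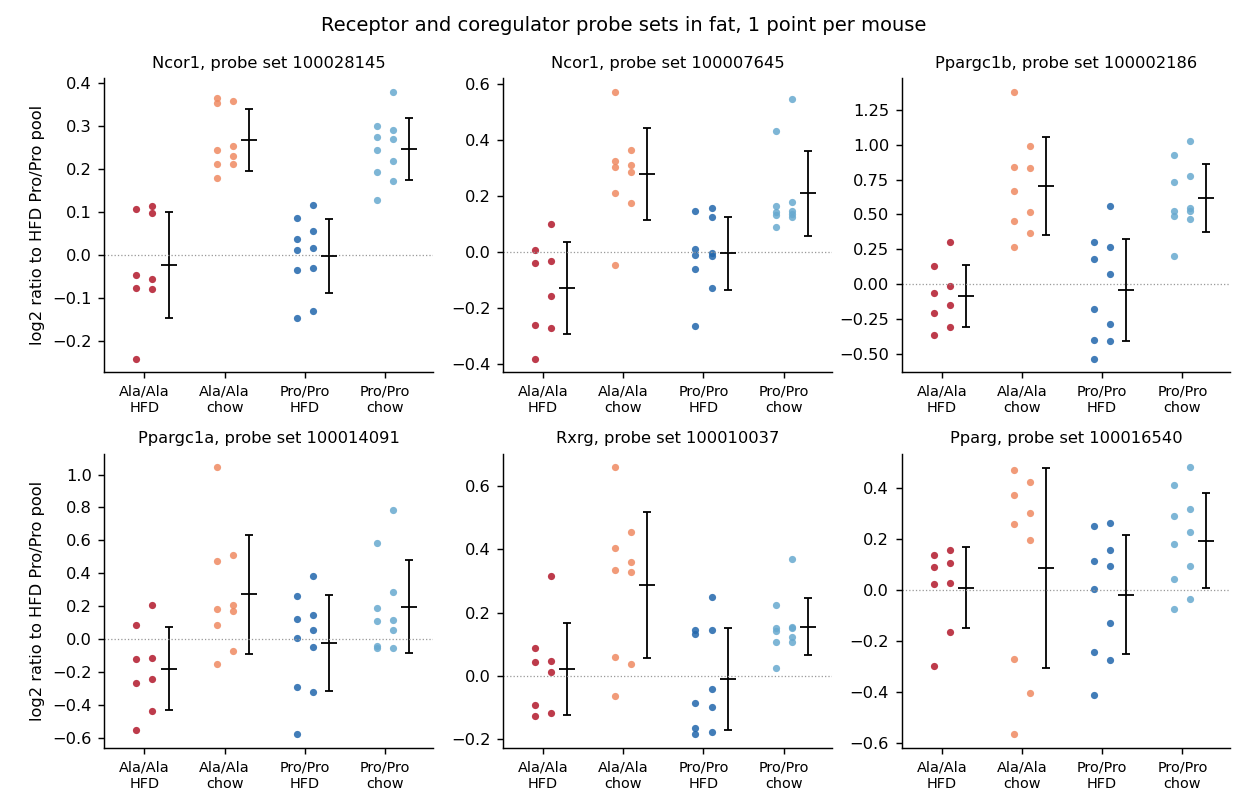
Log2 ratio to the HFD Pro/Pro pool (y axis) of 6 probe sets in fat, 1 point per mouse, for Ala/Ala HFD (n = 8), Ala/Ala chow (n = 9), Pro/Pro HFD (n = 10) and Pro/Pro chow (n = 10); the black marks give mean ± SD. HFD and chow mice do not overlap for Ncor1 100028145 and overlap for Pparg, where 6 of the 9 Ala/Ala chow mice lie above every Ala/Ala HFD mouse.

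Some calls in fat depended on a few arrays, and some fat pads carried transcripts of other organs. The mean over 11 hepatocyte markers ranged from -3.67 to 2.81 between fat arrays, and that over 14 epididymis and testis markers from -2.21 to 0.65. An array was left out where either mean lay more than 2 above its median over fat arrays. This took out 9 arrays (Ala/Ala HFD Mouse80 and Mouse99, Ala/Ala chow Mouse113, Pro/Pro HFD Mouse111, Mouse137, Mouse143 and Mouse147, Pro/Pro chow Mouse73 and Mouse74). Ala/Ala HFD Mouse128 and Pro/Pro HFD Mouse95, with epididymis and testis means of -0.17 and -0.85, stayed in. Without the 9 arrays, the Ala/Ala calls remained for the 4 Ncor1 probe sets, Rxrg and Ppargc1b 100002186. The Ppargc1a calls were lost (-0.32, adjusted p = 0.0947, and -0.29, adjusted p = 0.196). In Pro/Pro mice Ncor1 100028145, Ncor1 100038673 and Ppargc1b 100002186 kept their calls, and Ncor1 100007645 (-0.20, adjusted p = 0.096), Ncor1 100022618 (-0.27, adjusted p = 0.0828) and Ppargc1b 100013922 (-0.26, adjusted p = 0.0601) lost theirs, at differences close to those over all arrays (-0.21, -0.32 and -0.21). Ppargc1a 100026220 also lost its call without any 1 of Ala/Ala Mouse80, Mouse99, Mouse117, Mouse149 and Mouse152 (HFD) or Mouse109, Mouse113, Mouse121 and Mouse122 (chow), with adjusted p up to 0.116. Ppargc1b 100013922 lost its call in Pro/Pro mice without any 1 of Mouse94, Mouse95, Mouse110, Mouse123, Mouse125, Mouse131 and Mouse147 (HFD) or Mouse73, Mouse74, Mouse84, Mouse85, Mouse105 and Mouse106 (chow), with adjusted p up to 0.0967, and Ncor1 100007645 did without chow Mouse85 (adjusted p = 0.0522).

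Some cell type markers passed the diet test in the same fat pads, most often those of mesothelium. Over all genes 11.9% were lower and 14.2% higher in Ala/Ala fat, and 11.3% lower and 11.2% higher in Pro/Pro fat. Of 8 mesothelium markers, genes of the cell layer that covers the fat pad, 4 were lower on HFD in Ala/Ala and 5 in Pro/Pro mice, and their mean was -0.24 ± 0.41 in Ala/Ala HFD mice and 0.16 ± 0.38 in Ala/Ala chow mice, -0.07 ± 0.24 in Pro/Pro HFD mice and 0.40 ± 0.32 in Pro/Pro chow mice (SD). The range of that mean was -0.96 to 0.25, -0.53 to 0.66, -0.57 to 0.39 and -0.24 to 0.83 in these 4 groups. Of 10 macrophage markers 2 were higher and 1 lower in Ala/Ala, 2 higher and 2 lower in Pro/Pro mice, and of 8 adipocyte markers 1 was higher and 3 lower in each genotype. The mean of the adipocyte markers spanned -0.27 to 0.00 in Ala/Ala HFD, -0.25 to 0.05 in Ala/Ala chow, -0.15 to 0.08 in Pro/Pro HFD and -0.37 to 0.03 in Pro/Pro chow mice. Of 14 epididymis and testis markers 1 was higher on HFD in Ala/Ala (median difference 0.24) and 5 in Pro/Pro mice (0.59), and their mean spanned -1.98 to -0.17 in Ala/Ala HFD, -2.06 to -1.90 in Ala/Ala chow, -2.03 to 0.65 in Pro/Pro HFD and -2.21 to -1.47 in Pro/Pro chow mice. Of 11 hepatocyte markers 0 passed limma in either genotype, with median differences of 1.16 and 0.90. The part of mesothelium and macrophages in the member differences was not tested, and the values without the 9 arrays are those given above.

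Part of a list of other PPAR and RXR coregulators was lower on HFD in fat. This list, like the members and the lists below, was chosen with earlier results of these data known. Each listed gene was read by 1 probe set, the one with the highest variance within groups. Of 22 measured coregulators 11 were lower on HFD and 0 higher in Ala/Ala fat, where 11.9% of all genes were lower and 14.2% higher, and 7 were lower and 1 higher in Pro/Pro fat, against 11.3% lower and 11.2% higher. The median coregulator difference was -0.29 in Ala/Ala and -0.14 in Pro/Pro mice, beside 0.04 and 0.03 over all genes. Kmt2c, a histone methyltransferase of the nuclear receptor coactivator complex, fell by 0.69 ± 0.09 in Ala/Ala and by 0.53 ± 0.08 in Pro/Pro mice on the log2 scale. Sirt1, a deacetylase that acts on PGC-1α, fell by 0.60 ± 0.11 and 0.62 ± 0.10 in the same order. Ncoa6, a coactivator, fell by 0.35 ± 0.06 and 0.29 ± 0.05, and the acetyltransferase Ep300 by 0.33 ± 0.07 and 0.35 ± 0.06. Hdac3, the deacetylase that NCoR1 holds and activates, fell by 0.26 ± 0.04 in Ala/Ala and 0.16 ± 0.03 in Pro/Pro mice. Wwtr1 (TAZ, which restrains PPARγ) was the 1 coregulator that was higher, by 0.26 ± 0.07 in Pro/Pro mice, and was named after its value was seen.

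**Figure D3:**
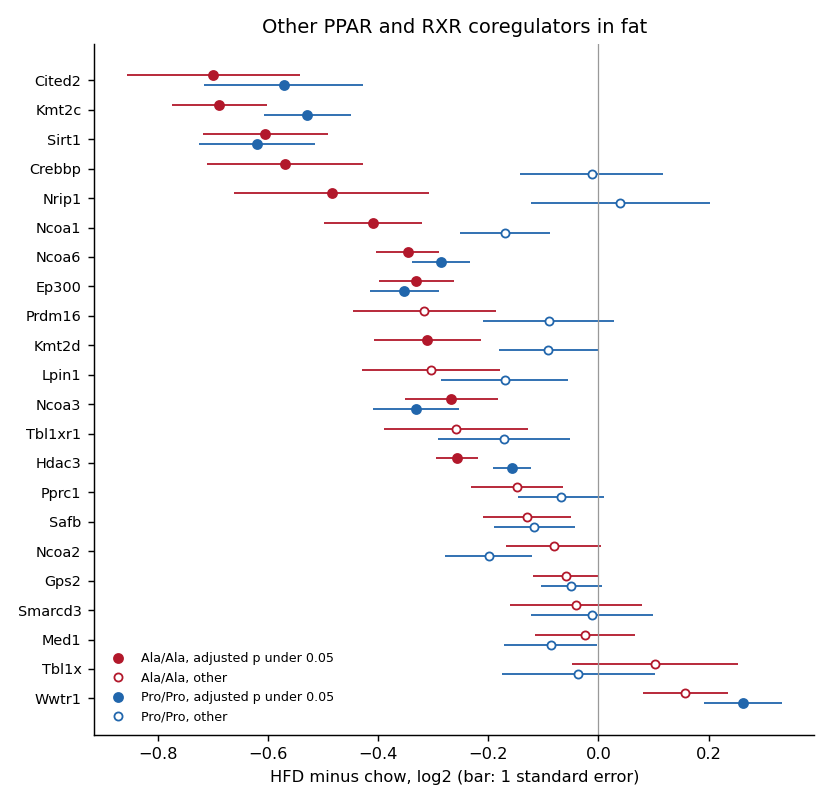
HFD minus chow difference (x axis, log2, bars of 1 standard error) of 22 other PPAR and RXR coregulators (y axis) in fat, with Ala/Ala above Pro/Pro and filled points at an adjusted p under 0.05. Of the Ala/Ala differences 11 lie below 0 and are filled, of the Pro/Pro differences 7, and Wwtr1 in Pro/Pro mice is filled above 0.

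Genes that act with or downstream of the receptors did not share 1 direction in fat. Of 18 adipogenic transcription factors 7 were lower and 1 higher in Ala/Ala, 4 lower and 2 higher in Pro/Pro mice. Over all genes 11.9% were lower and 14.2% higher in Ala/Ala fat, and 11.3% lower and 11.2% higher in Pro/Pro fat. Ebf1, an early factor of the adipocyte lineage, fell by 0.56 ± 0.08 in Ala/Ala and 0.41 ± 0.07 in Pro/Pro mice, and Nr3c1, the glucocorticoid receptor, by 0.56 ± 0.09 and 0.55 ± 0.08. Cebpb, which acts early in adipocyte formation, was higher by 0.34 ± 0.08 and 0.47 ± 0.07. Klf2, which represses Pparg, differed by -0.56 ± 0.12 in Ala/Ala and by -0.41 ± 0.11 in Pro/Pro mice. Zfp423, a preadipocyte factor, rose by 0.46 ± 0.10 in Pro/Pro mice.

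Of 21 measured PPARγ target genes of adipocytes 4 were higher and 3 lower in Ala/Ala fat, and 2 higher and 3 lower in Pro/Pro fat. Over all genes 14.2% were higher and 11.9% lower in Ala/Ala fat, and 11.2% higher and 11.3% lower in Pro/Pro fat. The same shares stand beside the other lists of this paragraph. Adipoq, the hormone adiponectin, fell by 0.14 ± 0.03 in Ala/Ala and 0.10 ± 0.03 in Pro/Pro mice, and Pck1, a glycerol-forming enzyme in fat, by 0.53 ± 0.15 and 0.46 ± 0.14. Aqp7, a glycerol channel, rose by 0.51 ± 0.13 in Ala/Ala mice. Agpat2, an enzyme of triglyceride synthesis, rose by 0.48 ± 0.17 in Ala/Ala and by 0.65 ± 0.15 in Pro/Pro mice. Of 18 targets of PPARα and PPARδ 6 were higher and 1 lower in Ala/Ala, 4 higher and 1 lower in Pro/Pro fat. The lipid droplet protein gene Plin2 rose by 0.73 ± 0.10 and 0.59 ± 0.10, and Cpt1b, which admits fatty acids to mitochondria, by 0.81 ± 0.16 and 0.58 ± 0.15. Acot2, the 1 lower gene of this list, differed by -0.39 ± 0.08 in Ala/Ala and by -0.28 ± 0.07 in Pro/Pro mice. Pdk4, which spares glucose from oxidation, rose by 0.87 ± 0.17 in Ala/Ala and by 0.59 ± 0.15 in Pro/Pro mice. Of 18 PGC-1 partners and mitochondrial targets 1 was higher and 1 lower in each genotype: Idh3a of the citric acid cycle rose by 0.60 ± 0.12 and 0.48 ± 0.11, Mef2c, a muscle transcription factor, fell by 0.61 ± 0.18 in Ala/Ala mice and Gabpa, a regulator of mitochondrial genes, fell by 0.50 ± 0.11 in Pro/Pro mice. Of 13 other receptors that pair with RXR, Nr1i3 was higher (0.34 ± 0.11) and Nr1h2 lower (-0.15 ± 0.05) in Ala/Ala mice and 0 passed in Pro/Pro mice in limma.

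In muscle and liver no member passed the diet test. In muscle 0 of 21 probe sets passed limma's adjusted test in Ala/Ala mice and 0 in Pro/Pro mice, with 2 and 1 at an unadjusted p under 0.05, where 1.95% and 0.956% of all probe sets passed. In liver 0 passed in either genotype, with 1 in Ala/Ala and 2 in Pro/Pro mice at an unadjusted p under 0.05, and 0% of all probe sets passed, so the liver comparison gave no diet call for any gene. The differences in muscle spanned -0.08 to 0.27 in Ala/Ala and -0.12 to 0.15 in Pro/Pro mice, with standard errors of 0.04 to 0.21, and those in liver -0.25 to 0.16 in Ala/Ala and -0.19 to 0.21 in Pro/Pro mice, with standard errors of 0.06 to 0.22. Ncor1, whose 6 muscle differences lay between -0.08 and 0.12 in Ala/Ala and -0.07 and 0.07 in Pro/Pro mice, had muscle intervals no lower than -0.22. The 95% intervals for Ppargc1a reached from -0.24 to 0.66 in Ala/Ala and from -0.54 to 0.33 in Pro/Pro muscle. The Ala/Ala interval ends above both differences of Ppargc1a in Ala/Ala fat (-0.45 and -0.46), and the Pro/Pro interval holds those of Pro/Pro fat (-0.22 and -0.13), which did not pass. These fat differences carry errors of their own. Averaged over genotypes, fat minus muscle passed for neither Ppargc1a probe set in limma (-0.35 ± 0.17, adjusted p = 0.115, and -0.38 ± 0.19, adjusted p = 0.134).

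The diet differences of fat and of the other tissues were compared directly in 1 fit over all 112 arrays, averaged over genotypes. Fat minus muscle passed for 6 of the 21 probe sets, 4 of Ncor1 and both of Ppargc1b, where 25.1% of all probe sets passed. Fat minus liver passed for 6, the same 4 of Ncor1, Ppargc1b 100002186 and Ppargc1a 100014091, where 26.6% passed. Muscle minus liver passed for 0 in limma, where 0.824% passed. Both fat comparisons share the fat arrays. For Ppargc1b 100002186 the diet difference was -0.72 in fat, 0.09 in muscle and -0.13 in liver, so that fat differed from muscle by -0.81 ± 0.13 (adjusted p = 6.36e-07) and from liver by -0.60 ± 0.13 (adjusted p = 0.000119). For Ncor1 100028145 it was -0.27 in fat, 0.01 in muscle and -0.05 in liver, and fat differed from muscle by -0.28 ± 0.05 (adjusted p = 9.18e-06) and from liver by -0.22 ± 0.05 (adjusted p = 0.000241). For Ppargc1a 100014091 it was -0.34 in fat, 0.01 in muscle and 0.12 in liver, and fat minus liver was -0.46 ± 0.16 (adjusted p = 0.0227), a call that was lost without Mouse113 (-0.40, adjusted p = 0.0516). Pparg did not differ past the threshold between fat and muscle (-0.21 ± 0.17, adjusted p = 0.408) or fat and liver (-0.05 ± 0.17, adjusted p = 0.879).

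Muscle targets of the receptors changed while the receptors did not pass. Of 18 targets of PPARα and PPARδ 7 were higher and 0 lower on HFD in Ala/Ala muscle, where 1.18% of all genes were higher and 1.02% lower, and 5 higher and 0 lower in Pro/Pro muscle, against 0.469% and 0.667%. Acadl, an enzyme of fatty acid oxidation, rose by 0.50 ± 0.05 in Ala/Ala and 0.42 ± 0.05 in Pro/Pro mice, and Slc25a20, the mitochondrial carnitine carrier, by 0.45 ± 0.04 and 0.42 ± 0.05. Acadm and Hadha, also of fatty acid oxidation, rose by 0.30 ± 0.03 and 0.30 ± 0.04 in Ala/Ala, and by 0.24 ± 0.04 and 0.30 ± 0.05 in Pro/Pro mice. Of 21 adipocyte targets of PPARγ 5 were higher in Ala/Ala muscle and 0 passed in Pro/Pro muscle: Acsl1 rose by 0.51 ± 0.08 and Cd36, a fatty acid transporter, by 0.45 ± 0.07. The difference between genotypes passed for 0 of these genes in limma. Adipocyte markers differed in the same comparisons: 1 of 8 was higher on HFD in Ala/Ala muscle (median difference 0.47) and 0 passed in Pro/Pro muscle (-0.09). Their mean spanned 0.09 to 1.18 in Ala/Ala HFD, -0.33 to 0.52 in Ala/Ala chow, -0.24 to 0.44 in Pro/Pro HFD and -0.62 to 0.91 in Pro/Pro chow mice, and their part in the changes of these genes was not tested. Srebf1, a lipogenic factor, was the 1 adipogenic transcription factor that rose, by 0.47 ± 0.07 in Ala/Ala and 0.41 ± 0.08 in Pro/Pro mice. Vegfa was the 1 PGC-1 target that rose, by 0.37 ± 0.10 in Ala/Ala mice, and 0 did in Pro/Pro muscle. Among the 22 coregulators and the 13 other RXR partners 0 passed in either genotype in muscle, and in liver 0 genes of any of the 6 lists passed in limma.

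The Pro12Ala genotype was compared on each diet, which is the question the series was set up to address. No member passed in any tissue. In fat 0 of 21 probe sets passed limma on HFD (0.0705% of all probe sets did), 0 on chow (0.0153%), 0 over both diets (0.0429%), and 0 had an unadjusted p under 0.05 in any of these. In muscle 0 passed on HFD (0.0153%), on chow (0.0184%) and over both diets (0.0337%), with 3, 0 and 2 at an unadjusted p under 0.05. In liver 0 passed on HFD (0%), on chow (0%) and over both diets (0.0153%), with 1, 0 and 1 at an unadjusted p under 0.05. The interaction of diet and genotype passed for 0 members and for 0% of all probe sets in fat, 0% in muscle and 0% in liver, with 0, 1 and 0 members at an unadjusted p under 0.05.

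Pparg did not differ with the allele past the threshold. In fat Ala/Ala minus Pro/Pro was 0.03 ± 0.12 on HFD (95% interval -0.21 to 0.27, adjusted p = 0.96) and -0.11 ± 0.12 on chow (-0.34 to 0.13, adjusted p = 1). In liver it was 0.22 ± 0.22 on HFD (-0.22 to 0.66, adjusted p = 0.793) and 0.15 ± 0.22 on chow (-0.29 to 0.59, adjusted p = 0.856). Liver values ranged from -0.61 to 0.52 in Ala/Ala HFD mice, -1.34 to 0.70 in Pro/Pro HFD mice, -0.43 to 0.74 in Ala/Ala chow mice and -0.72 to 0.63 in Pro/Pro chow mice. The variance within groups was 0.267 in liver, 0.0672 in fat and 0.055 in muscle, so values within a group spread most in liver. How much of this spread is measurement noise was not tested.

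**Figure D4:**
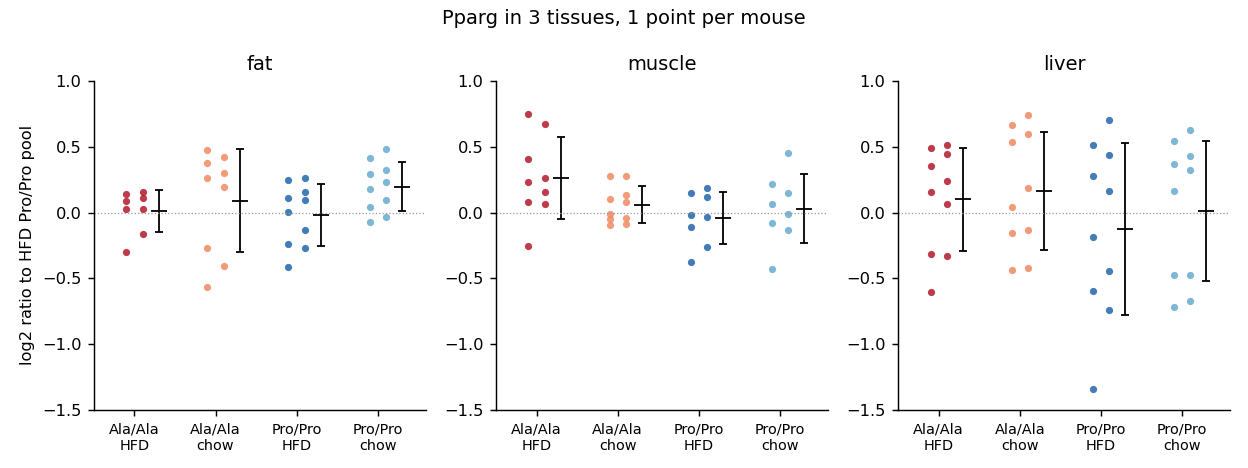
Pparg as log2 ratio to the HFD Pro/Pro pool of the tissue (y axis), 1 point per mouse, in fat, muscle and liver, with mean ± SD in black. The groups overlap in every tissue; in muscle the Ala/Ala HFD mice reach 0.75 and in liver single mice lie down to -1.34.

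In muscle Pparg ranged from -0.25 to 0.75 in Ala/Ala HFD mice (median 0.24) and from -0.37 to 0.19 in Pro/Pro HFD mice (median -0.03). The difference was 0.31 ± 0.11 (95% interval 0.09 to 0.53), with an unadjusted p of 0.00739 and an adjusted p of 0.468. On chow it was 0.03 ± 0.11 (adjusted p = 1). Adipocyte markers moved with this difference: their mean was 0.62 ± 0.39 in Ala/Ala HFD mice and 0.01 ± 0.24 in Pro/Pro HFD mice (SD), with ranges of 0.09 to 1.18 and -0.24 to 0.44, while 0 of 8 markers passed the genotype test in limma. Over 35 muscle arrays Pparg followed the adipocyte mean, both taken as deviations from group means. The correlations were r = 0.683 (permutation p = 1e-05, the smallest that 100000 resamples can give, adjusted p = 9e-05 over 9 members) and rho = 0.616 (permutation p = 0.00013, adjusted p = 0.00117). Without the 2 arrays furthest from the median r was 0.576. The other 8 members did not pass (lowest adjusted permutation p = 0.0835 for r, Rxrb, and 0.0623 for rho, Rxrb). With the adipocyte mean as a covariate the muscle difference of Pparg on HFD was 0.03 ± 0.10 (adjusted p = 0.976). Adipoq, Plin1, Fabp4 and Cidec stand both in the marker list and in the list of PPARγ targets. This fit therefore cannot separate fat cells in the sample from a change of Pparg itself, and the source of the difference was not tested.

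**Figure D5:**
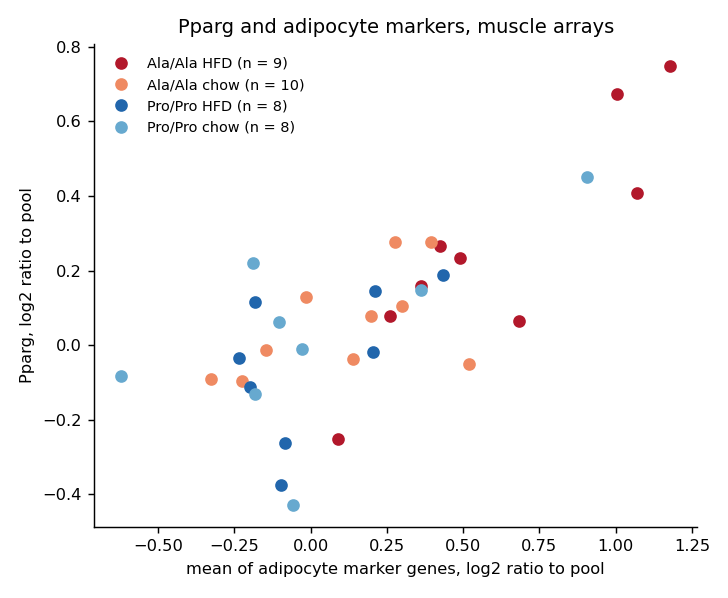
Pparg (y axis) against the mean of 8 adipocyte marker genes (x axis) on 35 muscle arrays, both as log2 ratio to the pool, coloured by group. The arrays rise together, and the highest Pparg values, up to 0.75, belong to Ala/Ala HFD mice with high marker means. The correlation in the text (r = 0.683) is of deviations from group means, not of the values drawn.

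The genes whose values followed Pparg most closely differed between tissues. Correlating deviations from group means, over 35 muscle arrays, the 3 nearest genes were Trarg1 (r = 0.778), Cebpa (r = 0.755) and Prkar2b (r = 0.751), of which Cebpa is a factor of adipocyte formation and Trarg1 a regulator of glucose transporter traffic in adipocytes. Over 37 fat arrays they were Hspb11 (r = 0.73), 2700046G09Rik (r = 0.724) and Pim3 (r = 0.71), and over 40 liver arrays Fitm1 (r = 0.839), a lipid droplet protein of muscle, Olig1 (r = 0.839) and 4931406C07Rik (r = 0.835). For Ppargc1a the nearest were Adgrg2 (r = 0.809), Cetn4 (r = 0.796) and Gprasp1 (r = 0.785) in fat, Impact (r = 0.793), Abra (r = 0.73) and Adcy4 (r = 0.639) in muscle and Peak1 (r = 0.703), Rerg (r = 0.68) and 1700048O20Rik (r = 0.653) in liver. These are the highest of 16643 genes, arrays of a tissue share the pool, and Adgrg2 is, as background, a gene of the epididymis, whose transcripts some fat pads carried.

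Whether a mouse with a high value of a member in 1 tissue also had one in another was tested within the groups. Over the 9 members and 3 tissue pairs, 27 correlations of deviations from group means were computed, over 31 to 36 mice. None passed: the lowest adjusted permutation p was 0.375 for r and 0.35 for rho.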

How the data were processed

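Fat, muscle and liver RNA of separate mice was measured on Affymetrix mouse arrays. The deposited values are log10 ratios from Rosetta Resolver, per the labels, with the mouse on top and below it a pool computed from the HFD Pro/Pro mice; the sample descriptions name a pool of 10 wild-type samples instead. In fat and liver the mean ratio of the 10 HFD Pro/Pro arrays was 1 within 0.001 on the log10 scale for 99.996936% and 100% of probe sets, which fixes base and direction. In muscle 8 such arrays were analysed here (10.54%), so the same base, direction and kind of pool were assumed there. The ratios were turned to log2, with no further scaling: array medians lay between -0.0658 and 0.0262. The deposited floor of -2 (log10) was reached by 62 values in fat and 2 in muscle. Intensities were not used here, so neither signal over background nor a filter on expressed genes was available. Precision is limited by the number of arrays.

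Probe sets were named from the platform's annotation, with symbols updated through an NCBI gene table of GRCm38.p6 (25508 with 1 symbol, 7132 without). All members were matched by their current symbols. Within each tissue a mean for every group was fitted with limma 3.58.1 (R 4.3.3), and a further fit over the 12 groups compared diet differences between tissues. The fits were tested on simulated data with known changes. Lists were read by 1 probe set per gene, the one with the highest variance within groups. The genes named are all members and up to 4 genes per list and diet comparison with the smallest p. The 3 genes most like Pparg and Ppargc1a were named too. Ep300, Hdac3, Klf2, Pdk4 and Agpat2 are among the 4 in 1 genotype each. The members and lists were chosen with earlier results of these data known. Arrays with 1 mouse number are of 1 animal, per the labels. Deviations from group means of same-numbered arrays correlated with medians of 0.0108 (fat and muscle, 31 mice), -0.0159 (fat and liver, 36) and -0.00947 (muscle and liver, 35). Alternatives were 2 other normalizations, 2 rules for genes with several probe sets, a variance filter, array weights, a false discovery rate of 0.20 as in the series text, its t-test, an adipocyte covariate in muscle, fat arrays with transcripts of other organs left out, each mouse left out and the mouse as a replicate block. Promoter windows are from RefSeq (GRCm38.p6), and Ppargc1b was not searched.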

Additional observations from a re-analysis of the deposited data

Results flagged for a closer look

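In 9 of 252 groups of mice, counted over 21 probe sets, 3 tissues and 4 groups, 1 mouse lay far from the others of its group; chance flags about 1 in 20 groups, here 12.6. In fat these were Ppara 100036346 in Pro/Pro HFD Mouse143 (0.776, the others -0.492 to 0.136) and Ppara 100036152 in Pro/Pro chow Mouse85 (-0.488, the others -0.15 to 0.178). In muscle they were Ncor1 100028145 in Ala/Ala HFD Mouse127 (0.32, the others -0.075 to 0.077), Ncor1 100038673 in Ala/Ala chow Mouse88 (0.23, the others -0.071 to 0.034) and Ppara 100002406 in Ala/Ala chow Mouse120 (0.599, the others -0.139 to 0.252). In liver they were Rxra 100017436 in Pro/Pro HFD Mouse147 (-0.2, the others -0.014 to 0.088), Ppard 100002399 in Ala/Ala chow Mouse109 (0.288, the others -0.495 to -0.174) and in Pro/Pro chow Mouse91 (0.829, the others -0.801 to -0.046), and Ppara 100036152 in Pro/Pro chow Mouse105 (0.384, the others -0.137 to 0.136).

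The diet difference was lower in fat than in muscle, by the limma test of the difference between tissues, for Ncor1 by -0.336 (100007645), -0.368 (100022618), -0.281 (100028145) and -0.29 (100038673) and for Ppargc1b by -0.811 (100002186) and -0.309 (100013922). It was lower in fat than in liver for Ncor1 by -0.313, -0.359, -0.223 and -0.202 by the same probe sets in the same order, for Ppargc1a by -0.461 (100014091) and for Ppargc1b by -0.595 (100002186). Such calls were common on the array: 25.1% of all probe sets passed for fat minus muscle and 26.6% for fat minus liver.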

How the results depend on the processing

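Read by 1 probe set each, 4336 of 16643 genes passed for diet in Ala/Ala fat and 3736 in Pro/Pro fat, with p adjusted over all probe sets. Of the 9 members 3 passed in Ala/Ala fat and 1 in Pro/Pro fat, since the most variable Ncor1 probe set did not pass. The Ala/Ala count was 2 to 3 when each mouse was left out in turn. Ppargc1a, read by 100026220, was among the 3. It lost its call with quantile normalization, with array weights and without the 9 fat arrays. The Pro/Pro count was 2 with the mean of all probe sets of a gene, 2 with array weights, 5 at a false discovery rate of 0.20 and 1 to 2 when each mouse was left out in turn (2 without Mouse72, Mouse73, Mouse85, Mouse89, Mouse91, Mouse137, Mouse143 or Mouse147). Fat minus liver gave 1 member, and 1 to 2 without each mouse in turn (2 without Mouse84, Mouse85, Mouse88, Mouse114, Mouse128, Mouse137 or Mouse154). Fat minus muscle gave 1 and muscle minus liver 0. With the mouse number as a replicate block (paired, estimated correlation -0.00688) these counts were 1 for fat minus muscle, 1 for fat minus liver and 0 for muscle minus liver, and the block changed no call of a member. Outside fat, and for genotype and interaction in fat, the within-tissue count of members was 0 under every alternative run, the t-test of the series text included. No result that passed changed direction. Pparg genotype differences near 0, none of which passed, changed sign: in fat on HFD with 1 mouse left out (-0.0159 to 0.072), in fat over both diets with 1 mouse left out (-0.0634 to 0.0015) or without the 9 arrays, and in muscle on chow with 1 mouse left out (-0.0357 to 0.0897) or with the adipocyte covariate. Besides the calls lost in fat that are given with the results, quantile normalization and array weights each ended the calls of Ppargc1a 100026220 in Ala/Ala fat (adjusted p = 0.0771 and 0.0786) and of Ppargc1b 100013922 in Pro/Pro fat (adjusted p = 0.118 and 0.0703).

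Over all probe sets, diet passed for 8781 in Ala/Ala and 7338 in Pro/Pro fat, for 14790 and 11858 at a false discovery rate of 0.20, for 4245 and 3705 genes with 1 probe set each, for 4682 and 4278 with the mean of all probe sets of a gene, and in Ala/Ala mice for 5569 without the 9 fat arrays. In muscle it passed for 638 in Ala/Ala and 312 in Pro/Pro mice, for 1743 and 1325 at 0.20, for 385 genes and for 382 with the adipocyte covariate in Ala/Ala mice, and for 204 with quantile normalization and 206 with the variance filter in Pro/Pro mice. Genotype calls numbered 23 in fat on HFD, 38 with array weights, 97 at 0.20, 5 with gene means, 4 without the 9 arrays and 3 by that t-test; 5 in muscle on HFD, 28 at 0.20; and 5 in liver over both diets, 10 with quantile normalization, 11 with median centring, 24 with array weights, 26 with gene means, 76 by the t-test, 1696 at 0.20 and 1858 by the t-test at 0.20.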
